A study of Mus musculus with 16 samples.

Results

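The celiac ganglia of mice without the MYCN transgene were described here as a normal tissue, from 7 of the 16 RNA-seq samples of the series. The 7 were every sample whose labels gave celiac ganglia and no MYCN transgene. All came from mice 2 weeks old of a cross between a Th-MYCN line, kept on 129/SvJ, and the Runx1t1 knockout line CBB6-Runx1t1tm1Fc/H, and both sexes were used. Of these ganglia, 4 carried 2 copies of Runx1t1 (wild-type replicates 1, 2, 3 and 4) and 3 carried 1 copy (het replicates 1, 3 and 4). The column headers name the former Hom, which was read as homozygous for the wild-type allele because the labels call the same replicates wild-type. The remaining samples of the series were ganglia and tumors of MYCN homozygotes and were used only to share an estimate of spread in the 1 genome-wide test. Whether each library came from 1 animal or from pooled ganglia was not given in the sources used here, so the spread between libraries may be in part technical. The labels also give neuroblastoma as the cell type of every sample, these 7 included. Their tissue label is celiac ganglia, by which they are named here, and their marker genes are given below.

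The celiac ganglion is a prevertebral sympathetic ganglion in front of the abdominal aorta. Its postganglionic neurons receive acetylcholine from preganglionic fibers of the spinal cord, which acts on nicotinic receptors, and release noradrenaline, often with neuropeptide Y, onto the vessels, gut, spleen and pancreas. Noradrenaline is made from tyrosine by tyrosine hydroxylase (Th), aromatic amino acid decarboxylase (Ddc) and dopamine beta-hydroxylase (Dbh), is packed into vesicles by the monoamine transporter Slc18a2 and is taken back up by the transporter Slc6a2. Each neuron is wrapped by satellite glia, and the ganglion also holds Schwann cells, connective tissue, vessels and blood.

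The 4 genes that mark these cells were all among the most abundant messenger RNAs. Levels are given in TPM (a transcript level corrected for length and scaled to the same sum in each library) as mean ± SD with n = 7, and a triplet of values gives the lowest, median and highest library. Npy, the neuropeptide Y precursor, had 4065 ± 1372 TPM, with 5468, 1961, 2917 and 5266 in the wild-type and 4545, 5122 and 3175 in the het ganglia. Prph, the peripheral neurofilament protein peripherin, had 3261 ± 975 TPM, with 4331, 1531, 2379 and 3323 in the wild-type and 3712, 3937 and 3613 in the het ganglia. Dbh had 2890.3 ± 946 TPM, with 3498, 1182, 2201 and 3500.4 in the wild-type and 2937, 4001 and 2912 in the het ganglia. Th had 1541 ± 393 TPM, with 1920.2, 786, 1323 and 1739 in the wild-type and 1634, 1881 and 1505 in the het ganglia. Th lies at chr7:142892752-142931128 on the minus strand, and Dbh at chr2:27165233-27183200, Npy at chr6:49822710-49829507 and Prph at chr15:99055174-99058978 on the plus strand (mm10, GENCODE vM21). In each of the 4 genes the lowest library was wild-type replicate 2, and the wild-type and het ranges overlapped.

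The sequence just before the start site is shown for 3 of the leading genes of the noradrenergic phenotype, 1 for synthesis, 1 for storage and 1 for the co-transmitter. The sequences are from RefSeq (GRCm38.p6, the same assembly as mm10) and are written 5′ to 3′ on the strand of the gene. They end at the base before the RefSeq start site, except that of Th, from which the bases of an annotated exon (GENCODE vM21) were taken off. Capitals mark matches, on either strand, to the cyclic AMP response element TGACGTCA and to the GC box GGGCGG, and these motifs do not overlap here. The Th sequence is chr7:142900015-142900245 on the minus strand, that of Slc18a2 is chr19:59260628-59260877 on the plus strand and that of Npy is chr6:49822460-49822709 on the plus strand.
Th: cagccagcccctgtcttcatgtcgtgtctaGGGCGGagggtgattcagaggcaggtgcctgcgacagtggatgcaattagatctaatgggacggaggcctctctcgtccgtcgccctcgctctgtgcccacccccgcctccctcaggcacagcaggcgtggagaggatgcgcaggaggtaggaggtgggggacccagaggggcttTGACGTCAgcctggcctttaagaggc
Slc18a2: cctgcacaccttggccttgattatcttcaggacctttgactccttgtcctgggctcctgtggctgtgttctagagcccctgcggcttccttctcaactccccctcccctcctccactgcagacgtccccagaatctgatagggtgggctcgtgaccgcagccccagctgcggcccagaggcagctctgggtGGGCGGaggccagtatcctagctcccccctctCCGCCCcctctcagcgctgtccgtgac
Npy: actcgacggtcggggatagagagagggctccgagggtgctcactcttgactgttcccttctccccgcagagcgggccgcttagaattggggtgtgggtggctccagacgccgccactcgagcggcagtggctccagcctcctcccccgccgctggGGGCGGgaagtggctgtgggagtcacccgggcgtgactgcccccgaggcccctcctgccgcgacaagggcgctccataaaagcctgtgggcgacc

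The cyclic AMP response element in Th lies 45 to 38 bases before the RefSeq start site. Among the 18 genes of the sympathetic neuron list used below, 13 had such a sequence of 250 bases in the RefSeq table, as 14 windows, and Th was the only 1 with TGACGTCA. The motif is in 508 of all 32851 windows of that length (1.55%). The GC box is in 8 of the 14 windows, which belong to 8 of the 13 genes, and in 10756 of the 32851 windows (32.7%). These matches are letters in a window and were not tested for binding.

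The libraries held 10692299 to 36337191 assigned reads (RSEM expected counts). Wild-type replicates 1 and 2 and het replicate 1 had fewer than 20000000, with 12549635, 10692299 and 12169412. At these depths 3 reads, taken as the limit that a count of 0 allows, correspond to 0.0826 to 0.281 CPM, the count scaled to the same total in each library (counting error only). Of the 24411 genes in the table, 14612 had a mean of at least 1 TPM and 12803 had at least 1 TPM in each of the 7 ganglia. A mean of at least 10 TPM was reached by 10074 genes, of at least 100 TPM by 1806 and of at least 1000 TPM by 109, while 5333 genes had no count in any of the 7. Between 13791 and 14628 genes reached 1 TPM in a single library, the most in wild-type replicate 2.

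Wild-type replicate 2 stood apart from the other 6 libraries. Across genes, its log2 levels correlated with theirs at Pearson's r of 0.929 to 0.95, whereas the other 6 correlated with each other at 0.977 to 0.993 (across genes, which are not independent replicates). In wild-type replicate 2 the 6 T lymphocyte genes summed to 580.2 TPM against 1.21 to 6.32 in the other 6, and the 5 B lymphocyte genes to 665 against 1.77 to 6.99. Ptprc, the pan-leukocyte antigen CD45, had 230.5 TPM there and 0.990 to 5.99 elsewhere. Glycam1, a ligand of L-selectin, had 1778 TPM there and at most 2.91 elsewhere, the chemokine gene Ccl19 had 318 against at most 5.72, and the vascular addressin Madcam1 had 74.6 against at most 0.480 (Ptprc, Ccl19 and Madcam1 were chosen after their values were seen). Immature thymocyte markers were low there, with Rag2 at 0 and the 4 genes together at 3.54 TPM, though above the 0 to 0.65 elsewhere. All 18 sympathetic neuron genes were lowest in this library, and the part of the lymphoid RNA in their low TPM was not tested. In bulk samples, fewer cells of a type and less RNA per cell cannot be told apart, which holds for every list below.

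The leading transcripts were mostly structural non-coding RNAs, messenger RNAs of neurons and housekeeping messengers. The 20 genes with the highest mean TPM held 12.5% ± 1.54 of all TPM (the plot of the 20 leading genes). Rmrp, the RNA of the RNase MRP complex, came first at 19132 ± 9210.3 TPM, before Rpph1, the RNA of RNase P, at 18091 ± 7343 and the ribosomal RNA precursor Rn45s at 15480.2 ± 5281. These 3 together took 3.11% to 7.64% of the TPM, so that every other level is relative to a total that they share in. The nuclear long non-coding RNA Malat1 had 3689.9 ± 715 TPM. The order by TPM is not that by reads, since TPM divides reads by length. Over all 16 libraries the mean log2 CPM was 15.87 for Rn45s and 13.13 for Malat1, against 9.88 for Rmrp and 9.80 for Rpph1. Rmrp was the highest of the leading 3 in wild-type replicates 1 and 2 and het replicate 1, Rpph1 in wild-type replicate 3 and het replicate 4, and Rn45s in wild-type replicate 4 and het replicate 3.

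The messengers that followed included those of neurons, glia and housekeeping. Tuba1a, an alpha-tubulin of growing neurons, had 3483, 7649 and 9155 TPM. Gnas, whose locus encodes the stimulatory G protein alpha subunit, had 3149.8, 5398 and 6729 TPM. Sncg, gamma-synuclein, had 1894, 4168 and 4440.3 TPM and Uchl1, the neuronal ubiquitin hydrolase PGP9.5, had 1859, 3821 and 4618. The lipid carrier gene Apoe, strongly expressed by satellite glia, had 3876, 5244 and 5999 TPM. Among the leading genes the steadiest was Tmsb10, thymosin beta-10, an actin monomer binder, with 3535 ± 229 TPM and a coefficient of variation (CV, SD over mean) of 0.0647. Housekeeping genes in the set were Hsp90ab1 at 4544 ± 848 TPM, Hspa8 at 3730.1 ± 615, Ubb at 3757 ± 899, Ppia at 3368 ± 440 and the actins Actb at 3359 ± 1289 and Actg1 at 3332 ± 453. Actb was 6232 TPM in wild-type replicate 2 and 2512 to 3305 in the others. The 84 genes for cytoplasmic ribosomal proteins together held 7.08% ± 3.03 of the TPM, again with wild-type replicate 2 as the highest at 13.6%.

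**Figure D1:**
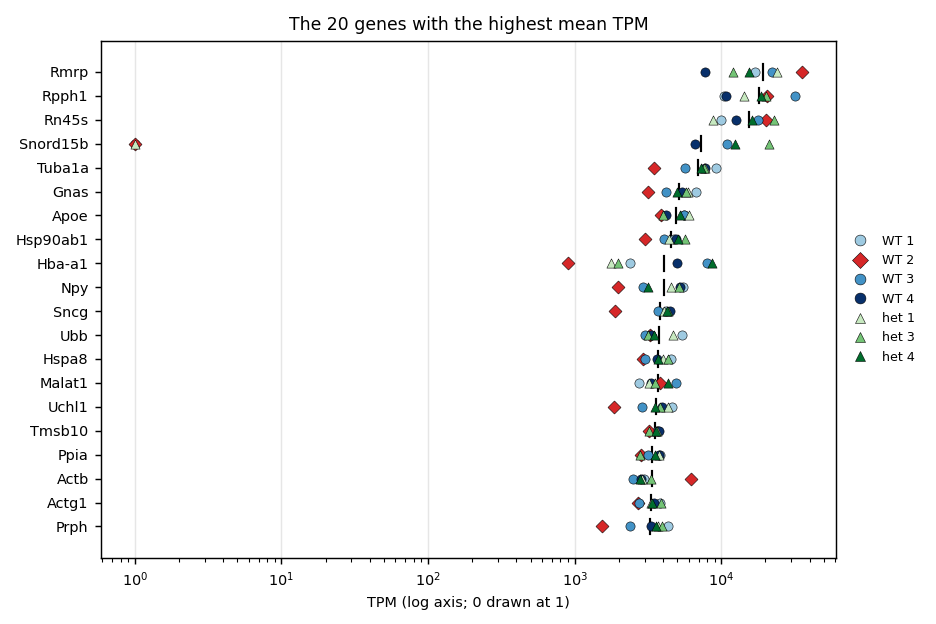
TPM (log axis) of the 20 genes with the highest mean in the 7 celiac ganglia, with 1 symbol per library (circles and the red diamond for wild-type Runx1t1, triangles for het) and a black tick at the mean; a value of 0 is drawn at 1. Snord15b is at 0 in 3 libraries, and wild-type replicate 2 (red diamond) is the lowest library for Tuba1a, Npy, Sncg, Uchl1 and Prph.

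The levels of 2 small structural RNAs differed between the shallower and the deeper libraries. Snord15b, a small nucleolar RNA gene, had 0 TPM in the 3 libraries with fewer than 20000000 reads and 6649.9 to 20993 in the other 4. TPM divides reads by length, and by reads this small gene was low, at a mean log2 CPM of 4 over all 16 libraries. Hmx1, a homeobox gene with far lower TPM, had 5.29 on that scale. Rprl3, an RNase P RNA-like gene, had 192 to 391.96 TPM in those 3 and 2224 to 5760 in the other 4, and was chosen after its values were seen. Both groups hold wild-type and het ganglia. The part of depth or of library preparation in these values was not tested.

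Of the 23 cell type lists, that of sympathetic neurons had the highest sum in every ganglion. The neuron list held 18 genes and the others 4 to 10, so the sums depend on the genes chosen. The satellite glia list was the next by mean, but the erythroid list was above it in wild-type replicates 3 and 4 and het replicate 4, and the fibroblast list in wild-type replicate 3. The 18 neuron genes summed to 23296 ± 6763 TPM (25395 ± 4227 without wild-type replicate 2), with 29360, 10700, 18017 and 27073 in the wild-type and 25501, 28951 and 23467 in the het ganglia. The satellite glia and Schwann cell list summed to 6221 ± 1219.9 TPM. Apoe, which macrophages also express, made up 4918 ± 880.3 of it, and 9 of the 10 genes of the list were lowest in wild-type replicate 2. Other members included Fabp7, the brain lipid binding protein of glia, at 277, 851 and 870.1 TPM and Sox10, the transcription factor of crest-derived glia, at 56.7, 122 and 187. Kcnj10, the inward rectifier of satellite glia, had 16.1, 30.8 and 41.6 TPM, whereas Gfap was at 0.0600, 0.320 and 1.22.

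Myelinating Schwann cells were represented at a lower level, at 843 ± 269 TPM over 8 genes. The compact myelin gene Mbp had 93.5, 238 and 387 TPM, highest in wild-type replicate 3 and lowest in wild-type replicate 2, while Pmp2 was at 0, 0.220 and 1.92 TPM. Without wild-type replicate 2 the list was 699 to 1111 TPM. Pmp22, a myelin gene that other cells also use, had 425 ± 115 TPM and held the largest part of the sum.

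Connective tissue, fat and blood were present in every ganglion and differed several-fold between ganglia. The 6 fibroblast genes summed to 1724 to 7899 TPM, with the collagen genes Col3a1 at 772, 1552 and 3529 and Col1a1 at 383, 983 and 2148 in the lead and wild-type replicate 3 the highest in both. The adipocyte list ranged from 279 in wild-type replicate 1 to 2237 in wild-type replicate 3, and included Ucp1, the thermogenic protein of brown fat, at 51.9, 101.2 and 342 TPM. The erythroid list was 9037 and 9884 TPM in wild-type replicate 3 and het replicate 4 and 1133 to 5562 in the other 5, most of it from the alpha-globin gene Hba-a1 at 898, 2379 and 8646. Hbb-bs, an adult beta-globin gene, was listed at 0 in all 7 while its neighbor Hbb-bt had 25.3, 86.3 and 385 TPM. The genes are near-identical copies, so the level of each alone is uncertain, and how shared reads were divided was not tested. Endothelial genes summed to 53.8 to 590 TPM, led by Pecam1 at 15.6, 37.0 and 198 and Cdh5 at 13.4, 55.9 and 127.7, and were highest in wild-type replicate 2 in 7 of 8 genes.

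Immune cell genes were at lower levels outside wild-type replicate 2. Macrophage genes summed to 45.0 to 138 TPM in the other 6 ganglia and to 510.4 in that library, where all 8 were highest. The complement genes led the list, with C1qc at 10.3, 18.1 and 108 TPM, C1qb at 8.96, 20.5 and 96.3 and C1qa at 5.10, 14.8 and 101.96. The mast cell list was 21.6 to 67.9 TPM, led by Kit, which other cells also use, at 22.6 ± 3.09. The mast cell protease Cma1 had 1.52, 3.84 and 16.6 TPM, highest in wild-type replicate 3. Cycling cell genes summed to 19.97 to 40.4 TPM in 6 ganglia, with Mki67 at 6.81 to 15.6, and to 205 in wild-type replicate 2.

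Genes of the adrenal cortex, liver and skeletal muscle were detected at unequal levels. Adrenal cortex genes summed to 98.4 TPM in wild-type replicate 3 and 75.5 in het replicate 4 and to 6.48 to 26.9 in the other 5, with the steroid 21-hydroxylase Cyp21a1 at 1.10, 5.82 and 49.5. Aldosterone synthase, Cyp11b2, was at or near 0 (at most 0.5 TPM). The hepatocyte list was highest in wild-type replicate 3 at 283 TPM and lowest in het replicate 1 at 8.08, with albumin, Alb, at 1.78, 24.5 and 139. Skeletal muscle genes ranged from 12.7 TPM to 198 in het replicate 4. Pancreas and kidney were near absent. The islet genes Ins1, Ins2 and Iapp, the acinar gene Prss2 and the kidney genes Umod and Aqp2 had no count in any ganglion, and within the exocrine list Cela1 alone passed 1 TPM on average, at 8.67 ± 1.76.

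The chromaffin cells of the adrenal medulla share much of their program with sympathetic neurons. The chromaffin list reached 985 ± 325 TPM, almost all of it from the granins Chgb and Chga, which neurons use too. Of the genes that set the 2 cell types apart, Pnmt, which makes adrenaline, was at 0, 0.120 and 1.73 TPM and listed at 0 in 3 of the 7 ganglia. Slc18a1, the vesicular transporter typical of chromaffin cells, had 9.06, 17.8 and 27.1 TPM and the proenkephalin gene Penk 3.36, 19.03 and 40.5. The sensory neuron list summed to 149 ± 57.5 TPM, of which Avil, the actin-binding protein advillin, gave 136 ± 53.0. The other 7 members, among them the nociceptor channels Scn10a at 1.25, 5.03 and 6.67 and Trpv1 at 0, 0.410 and 0.690, stayed at or below 6.67 TPM in every library.

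**Figure D2:**
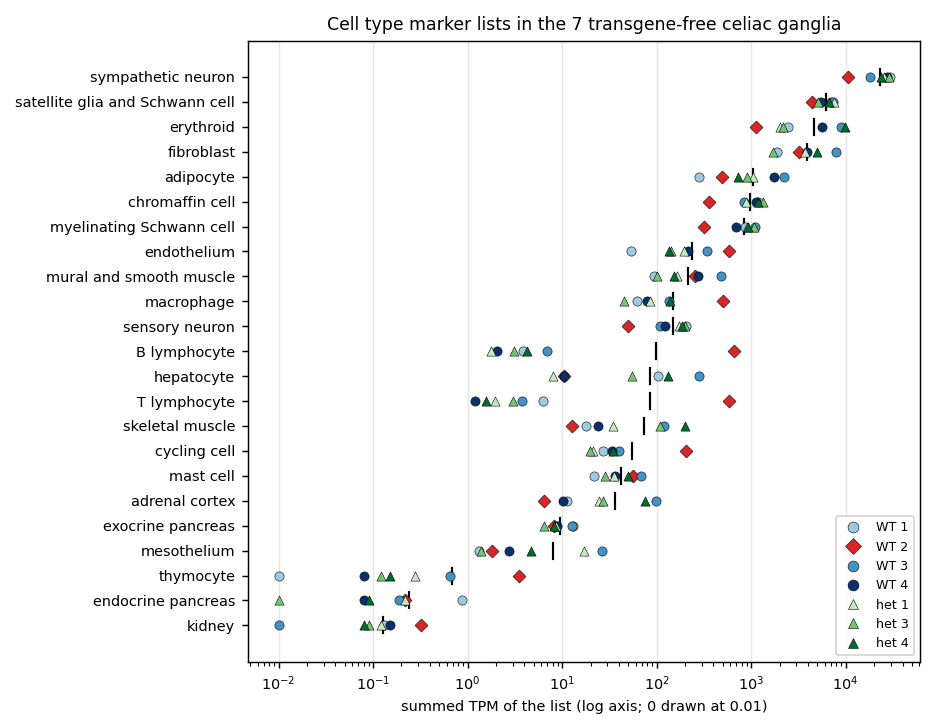
Summed TPM (log axis) of the 23 cell type marker lists in the 7 celiac ganglia, with 1 symbol per library and a black tick at the mean; a sum of 0 is drawn at 0.01. The sympathetic neuron list is the highest in all 7 libraries, and the T and B lymphocyte lists are above 500 TPM in wild-type replicate 2 (red diamond) and below 10 in the others.

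Set against the sum of the neuron list within each library, the neuron genes other than Gata3 varied less than in TPM. The CV of the 18 genes had a median of 0.287 in TPM and of 0.0922 as a percentage of the list sum, with the latter between 0.0418 and 0.208. Th made up 6.41% to 7.34% of the sum, Dbh 11.05% to 13.8%, Prph 12.3% to 15.4% and Npy 13.5% to 19.5%. Wild-type replicate 2 lay inside the range of the other 6 for 9 of the 18 genes, among them Prph and Npy. It was below them for 5, namely Dbh, Stmn2, Slc6a2, Chrna3 and Chrnb4, and above them for 4, namely Uchl1, Snap25, Slc18a2 and Gata3. Hand2, a transcription factor of these neurons, made up 3.43% to 3.98%, and Gata3, the most variable member, 0.224% to 0.377%. The CV of Gata3 was 0.208 on this scale and 0.160 in TPM. Since each gene is part of the sum it is divided by, these percentages are a description and carry no test.

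Noradrenaline synthesis, storage, uptake and breakdown were represented by 13 of 15 genes at a mean of at least 1 TPM, the exceptions being Pnmt and Slc6a3. The 15 genes of the list summed to 8715 ± 2549.7 TPM. The order of the mean levels was Dbh, Th, the reuptake transporter Slc6a2 at 1234 ± 476.3 TPM, and Cyb561, the granule cytochrome that passes electrons for Dbh, at 789 ± 241. Maoa, which oxidizes noradrenaline, had 656 ± 168 TPM and Ddc had 656 ± 182, and no order is drawn from means this close. Slc18a2 followed at 163, 318 and 391.6 TPM. The cofactor enzymes Qdpr and Gch1, which recycle and make tetrahydrobiopterin, had 163, 269 and 283 and 90.6, 184 and 254 TPM. Of the 15 genes, 11 were lowest in wild-type replicate 2. The dopamine transporter gene Slc6a3 was at most 0.760 TPM.

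Cholinergic sympathetic neurons are known to be a small minority in such ganglia. Chat, which makes acetylcholine, had 1.90, 0, 0.130 and 0.590 TPM in the wild-type and 0.730, 2.16 and 2.00 in the het ganglia. The vesicular acetylcholine transporter Slc18a3 had 16.5, 0.520, 6.76 and 3.29 TPM in the wild-type and 12.3, 22.3 and 27.4 in the het ganglia, and the choline transporter Slc5a7 had 0.310, 5.10 and 10.2. All 3 were lowest in wild-type replicate 2, and their genotype ranges overlapped. Slc18a3 relative to the neuron list ranged from 0.00486% to 0.117%, with a CV of 0.761 against 0.0649 for Th on the same scale. Ache, the acetylcholinesterase that noradrenergic neurons express as well, had 162, 370.1 and 483 TPM. Of 11 genes for other small transmitters, 1 had a mean of at least 1 TPM. The vesicular glutamate transporter Slc17a6 was at 0 in 6 ganglia and 0.0200 TPM in the remaining 1, the GABA-synthesizing enzymes Gad1 and Gad2 were at most 0.250 and 1.01 TPM, and the glycine transporter Slc6a5 had no count. That gene was the serotonin transporter Slc6a4, with 1.72, 12.8 and 22.4 TPM, while the serotonin-making enzymes Tph1 and Tph2 were at most 0.330 and 0.870.

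Neuropeptide precursors were led by Npy, and the peptides behind it differed between ganglia. Galanin, Gal, had 412, 42.1, 125 and 133 TPM in the wild-type and 300, 262 and 285 in the het ganglia. Somatostatin, Sst, had 170.4, 28.01, 56.6 and 87.3 in the wild-type and 82.8, 50.6 and 107 in the het ganglia. Vip, the vasoactive intestinal peptide precursor, had 79.8, 1.89, 13.9 and 4.51 in the wild-type and 23.1, 18.8 and 55.6 in the het ganglia. Wild-type replicate 1 was the highest and wild-type replicate 2 the lowest in all 3 genes. Relative to the neuron list, Vip ranged over 0.0167% to 0.272%, Gal over 0.394% to 1.40% and Sst over 0.175% to 0.581%. Cartpt had 0.880, 7.17 and 20.7 TPM, prodynorphin, Pdyn, had 0, 1.62 and 6.51, the substance P precursor Tac1 was at most 0.1, and urocortin, Ucn, had no count. The 11 genes of granins and prohormone processing, all expressed, summed to 3085 ± 865 TPM. The CV of this sum was 0.280, against 0.335 for the sum of the neuropeptide precursors. Among them Pcsk1n, an inhibitor of the prohormone convertase Pcsk1, had 664 ± 208 TPM, far above Pcsk1 itself at 59.0 ± 16.3 and Pcsk2 at 20.9 ± 9.25.

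**Figure D3:**
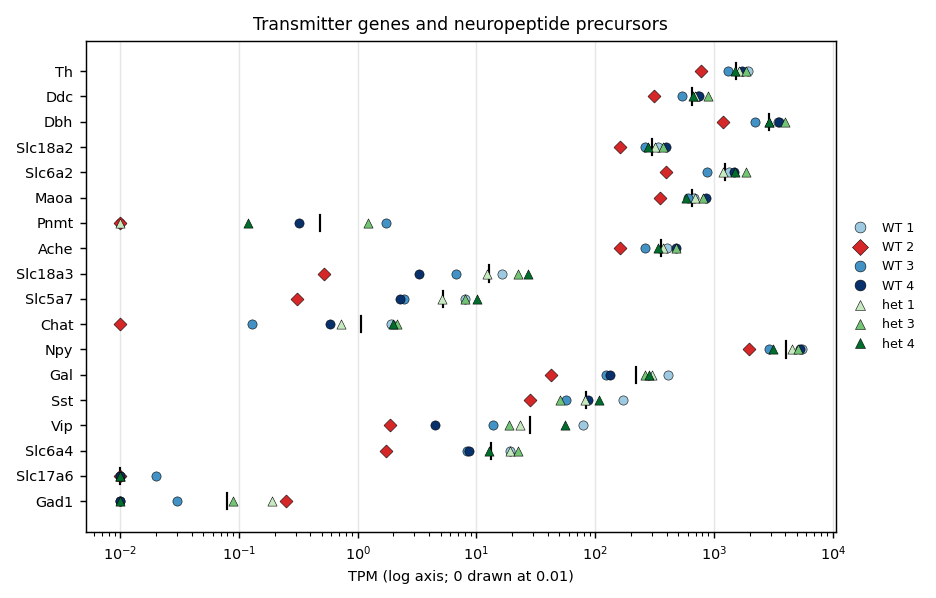
TPM (log axis) of transmitter genes and neuropeptide precursors in the 7 celiac ganglia, with 1 symbol per library and a black tick at the mean; a value of 0 is drawn at 0.01. The noradrenergic genes Th, Ddc, Dbh, Slc18a2, Slc6a2 and Maoa cluster within each row, whereas Slc18a3, Slc5a7, Chat and Vip spread over more than a factor of 10.

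Of the 18 transcription factors listed for sympathetic neurons, 16 had a mean of at least 1 TPM. Hand2, a helix-loop-helix factor of noradrenergic differentiation, led with 399.6, 929 and 1169 TPM, and Hand1 had 199, 408 and 574. The homeobox gene Phox2a had 183, 423 and 623 TPM, and the zinc finger genes Gata2 and Gata3 had 175, 343 and 427 and 40.4, 60.4 and 68.2. Isl1, a LIM homeobox factor, had 57.3, 126 and 164. Insm1, a zinc finger gene, was at 0.0200, 0.270 and 2.5 TPM. The mouse gene Mycn had 50.9 ± 14.7 TPM, while Hmx1, a homeobox gene, had 43.8, 88.6 and 232 TPM, highest in wild-type replicate 1. Ets1 was 198 TPM in wild-type replicate 2 and 6.38 to 24.1 elsewhere, and is known as a lymphocyte gene too. Of the 39 Hox genes, which carry axial position, Hoxc4 at 37.7 ± 9.64, Hoxc8 at 32.8 ± 12.5, Hoxc6 at 24.4 ± 5.85 and Hoxc9 at 22.8 ± 9.78 TPM led, and 8 had no count.

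Receptors for target-derived growth factors were abundant and their ligands were not. Ngfr, the low-affinity neurotrophin receptor p75, had 353, 1331 and 1868 TPM, lowest in wild-type replicate 2. The GDNF family signaling receptor Ret had 50.5, 176 and 227 TPM, with its binding partners Gfra3 at 28.3, 105 and 136 and Gfra2 at 38.5, 44.8 and 63.5, and Gfra1 at 1.87, 3.56 and 9.15. Of the ligand genes, Nrtn had 0, 0.950 and 2.41 TPM and Gdnf was at most 0.160 TPM.

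The axon and transmitter release were represented by 2 lists that share 4 genes with the neuron list. The 15 cytoskeleton genes, all lowest in wild-type replicate 2, summed to 26428 ± 7295 TPM. Behind Tuba1a, Uchl1 and Prph came the neuronal tubulin Tubb3 at 2447 ± 805, the microtubule regulator Stmn2 at 2246 ± 678, Map1b at 2183 ± 743 and the light neurofilament Nefl at 1776 ± 532, with Nefm at 882 ± 249.8 and Nefh at 275 ± 91.6. Doublecortin, Dcx, a gene of migrating young neurons, had 7.21, 15.2 and 19.7 TPM. Of the 22 genes for release, Cplx2 at 980.4 ± 326, the calcium sensor Syt1 at 790 ± 288, Syn2 at 677 ± 222 and Snap25 at 658 ± 143 TPM led. Among the vesicle proteins Sv2a, Sv2b and Sv2c, Sv2c had the highest level at 276 ± 107 TPM and Sv2b was at most 0.630. Neuronal gap junctions were represented by Gjd2, connexin 36, at 7.76, 27.9 and 40.7 TPM, and the glial connexin Gjc3 had 17.6, 35.9 and 68.7.

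Receptor and channel genes were described by the sum of each family and by the share of each member in it. Over the 32 families, the CV of the summed TPM had a median of 0.265, and that of the leading member's share a median of 0.108. The share had the lower CV in 25 of 32. The leading gene was the same in all 7 ganglia in 20 of 32. A share near its upper limit has little room to vary, as that of Drd2 among the dopamine receptors, so the CVs of shares are a description, and the plot of 6 families shows them by library.

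Nicotinic receptors, which receive the preganglionic signal, summed to 206 to 936 TPM. Chrna3 took 52.8% ± 1.92 of the sum and Chrnb4 21.8% ± 1.14, followed by Chrna7 at 14.3% ± 2.48, Chrnb2 at 5.86% ± 0.403 and Chrna5 at 4.51% ± 0.521. The alpha3 and beta4 subunits form the classical ganglionic receptor. Of the 16 genes, 4 had no count. Muscarinic receptors were divided between Chrm2, at 56.2% ± 2.68, and Chrm1, at 40.2% ± 1.65, of 125 ± 47.9 TPM, and Chrm2 was higher than Chrm1 in all 7.

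The adrenoceptors were mainly of the alpha2 class, the autoreceptors that restrain noradrenaline release. Adra2a took 53.8% ± 4.76 of 147 ± 33.1 TPM, with Adra2b at 16.5% ± 4.27 and Adra2c at 16.3% ± 3.78, neither the higher in every library. Among the dopamine receptors Drd2 was nearly alone at 34.6, 77.0 and 84.6 TPM, and Drd3 and Drd5 had no count. Serotonin receptors were led by the channel subunits Htr3a, at 69.2% ± 5.93, and Htr3b, at 25.4% ± 5.71, of 286 ± 97.4 TPM. The ATP-gated P2X family gave the steadiest sum of all 32, at 53.2 to 62.7 TPM, though its leader changed. P2rx4, which macrophages also express, led in 4 of 7, and P2rx2, the subunit of autonomic neurons, had 9.03, 19.6 and 24.5 TPM and was the lowest in wild-type replicate 2. The sensory subunit P2rx3 was at 0.570, 1.19 and 2.00 TPM.

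Receptors for GABA and glutamate were also expressed. Gabbr1 and Gabbr2 of the GABA-B receptor had 86.3, 198 and 248 and 17.8, 47.3 and 60.0 TPM. GABA-A subunits summed to 45.7 ± 9.83 TPM. Ionotropic glutamate receptors came to 474 ± 129 TPM, with the AMPA subunit Gria1 at 20.5% ± 2.23, the kainate subunit Grik5 at 19.1% ± 0.831 and the NMDA subunit Grin1 at 16.6% ± 1.49 of the sum, and Gria1 was above Grik5 in 4 of 7 libraries. Of the glycine receptor, the beta subunit Glrb, which also serves as an anchor partner, had 19.4, 46.0 and 54.0 TPM, while each alpha subunit was below 1 TPM in every ganglion.

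Among the peptide receptors, Adcyap1r1, the receptor of the preganglionic peptide PACAP, led the group of 42 gut and brain peptide receptors by mean with 44.7, 95.6 and 118 TPM. The receptor partner Ramp1, below it in 4 of 7 libraries, had 61.6, 79.7 and 128.2 TPM, and the angiotensin receptor Agtr1a had 39.7, 77.7 and 128.01. The nociceptin receptor Oprl1 took 69.5% ± 5.27 of the opioid receptor sum and the mu receptor Oprm1 23.9% ± 5.56. Of the receptors of neuropeptide Y, Npy4r had 7.04, 10.5 and 15.4, Npy1r 4.69, 9.52 and 16.1 and Npy2r, the presynaptic autoreceptor, 2.35, 5.53 and 9.27 TPM, so that each was far below the peptide precursor itself. The somatostatin receptor Sstr2 had 10.8, 19.9 and 41.7 TPM, highest in wild-type replicate 3.

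Sodium channel alpha subunits summed to 278 ± 71.2 TPM. Scn9a, the Nav1.7 channel of peripheral neurons, had 34.5, 94.1 and 121 TPM, and Scn7a, a sodium-sensing channel of glia, had 44.6, 79.7 and 184. Scn9a was ahead in 4 of 7 libraries and Scn7a in 3. Scn3a followed at 20.5, 48.2 and 61.1 TPM. The beta subunits Scn3b and Scn2b had 119 ± 40.3 and 111 ± 33.2 TPM, and Scn3b was above Scn2b in 5 of 7 libraries. Calcium channels were led by Cacna1b, the N-type channel of transmitter release, with 48.5% ± 6.62 of 155 ± 39.8 TPM, before the P/Q-type Cacna1a with 28.7% ± 3.03. Their auxiliary subunits were led by Cacnb3 at 40.4% ± 1.15 and Cacnb1 at 26.5% ± 2.12.

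Among the potassium channels, the Kv7 subunits, which carry the M-current that muscarinic input closes in sympathetic neurons, were led by Kcnq3 at 45.8% ± 3.64 of 229.7 ± 65.3 TPM. The Kv1 to Kv4 group was led by Kcnc4 at 27.8% ± 5.26 and Kcna6 at 20.3% ± 3.00. Kcna1 was 79.6 TPM in wild-type replicate 3 and 10.8 to 41.3 in the others. Kcnmb4, a beta subunit of the large-conductance calcium-activated channel, had 322 ± 88.5 TPM against 42.1 ± 12.2 for the pore subunit Kcnma1. The background channel Kcnk10 had 14.8, 43.0 and 61.8 TPM and the ether-a-go-go channel Kcnh2 16.2, 36.6 and 42.6. The pacemaker family was led by Hcn2 at 44.9% ± 5.20, before Hcn3 at 29.7% ± 3.71 and Hcn4 at 22.9% ± 5.86.

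Of the other channels and pumps, Trpv2 led the TRP genes with 36.3, 54.7 and 59.8 TPM and Asic2 the acid-sensing and Piezo genes with 76.5, 165 and 182. Piezo1, which endothelium also uses, was highest in wild-type replicate 2 at 30.9 TPM. Among the beta subunits of the sodium pump, Atp1b1 took 83.3% ± 5.09 of 1069 ± 326 TPM.

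**Figure D4:**
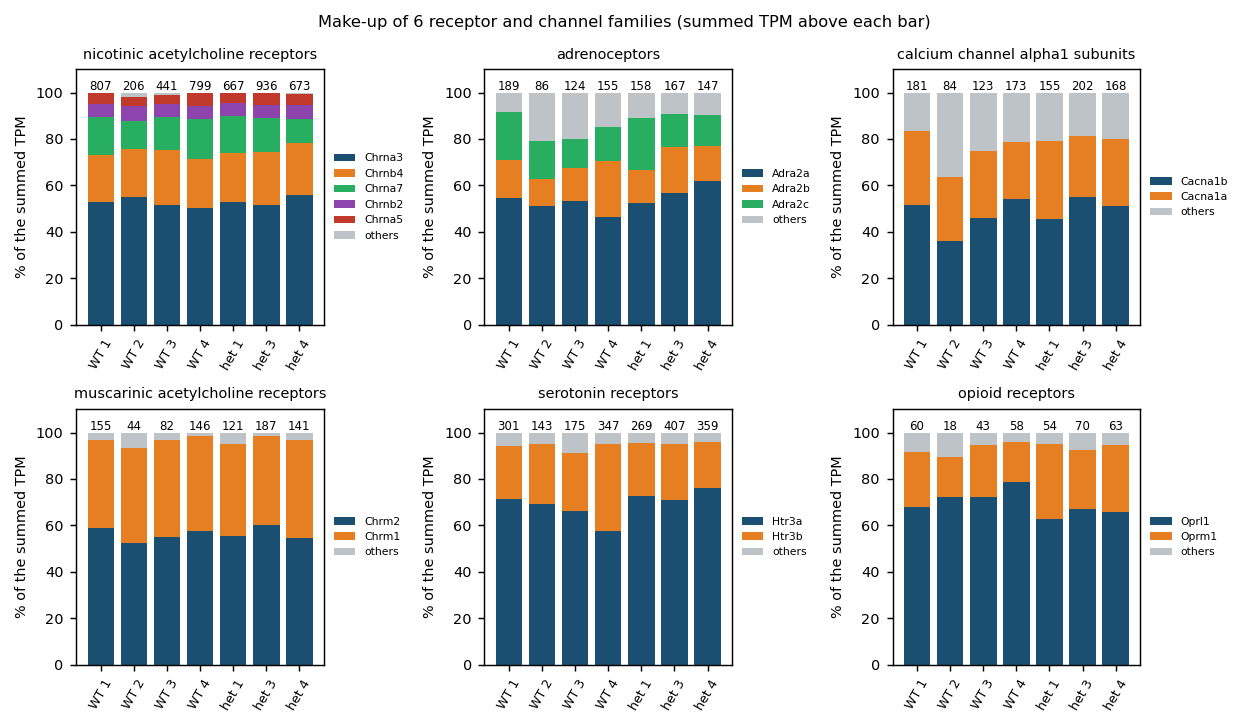
Make-up of 6 receptor and channel families, as the percentage of the family's summed TPM (linear axis from 0) taken by the members named and by the others together in each of the 7 celiac ganglia, with the summed TPM above each bar. Chrna3 takes 50.2% to 55.7% of the nicotinic sum in all 7 libraries while that sum runs from 206 to 936 TPM.

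The order of 30 pairs of genes was compared within the libraries. The pairs were chosen with their levels known, so the order is a description with no test. In 27 pairs it was the same in all 7 ganglia, and in the 3 others 1 library went against the rest. On the log2(TPM + 1) scale Slc18a2 exceeded Slc18a1 by 3.99 ± 0.78 and Npy exceeded Gal by 4.39 ± 0.77. Among the small differences was that of Chrm2 over Chrm1, with a TPM ratio of 1.29 to 1.57. The ratio of Tubb3 over Dcx was 134 to 191 in the 7 ganglia.

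The spread of genes between ganglia was small for most, and most genes of the largest spread were highest in wild-type replicate 2. Among the 10074 genes with a mean of at least 10 TPM, the median CV was 0.2, and 0.135 without wild-type replicate 2. A CV below 0.1 was found for 1202 genes. Among the 10 lowest were Mapkap1 (an mTORC2 subunit, 31.6 to 33.6 TPM), Txnl4a (a splicing factor, 151 to 160.2), Dnajc10, Atp9b, Tma7, Sowahc, Ccar1, Brd2 (a bromodomain protein, 164 to 182) and Terf2. A CV above 1 was found for 314 genes, of which 290 were highest in wild-type replicate 2, and 44 kept a CV above 1 without it. Of the 10 highest, 8 were high in wild-type replicate 2, namely Ubd at 161 TPM, Cd3e at 75.5, the B lymphocyte chemokine Cxcl13 at 105, the macrophage receptor Marco at 113, and Ms4a4b, Glycam1, Mzb1 and H2-Q9, each with at most 2.91 TPM in any other library. The remaining pair were small RNA genes seen in 1 library each, Mir8098 at 112 TPM in wild-type replicate 4 and Snora24 at 75.6 in het replicate 4. Without wild-type replicate 2 the 10 highest were 6 small RNA genes (Mir8098, Snora24, Snora43, Snora16a, Snora52 and Snora17), Gm1987, the smooth muscle myosin gene Myh11 at 5.72 to 139 TPM, Retnla at 0.52 to 50.1 and the histone gene Hist2h3c1, and only 2 of the first 10 remained.

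**Figure D5:**
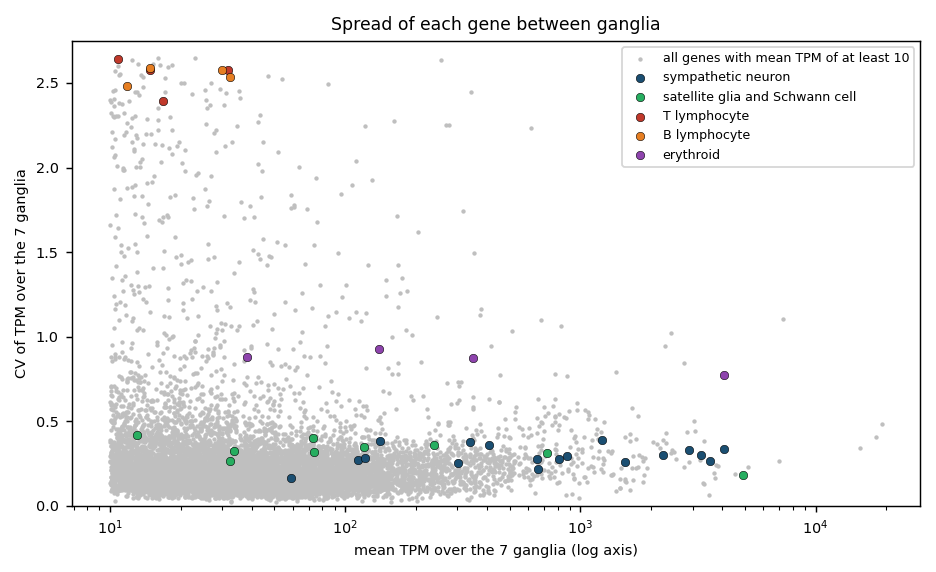
CV of TPM over the 7 celiac ganglia (linear axis) against mean TPM (log axis) for the 10074 genes with a mean of at least 10 TPM (grey), with the members of 5 cell type lists that pass this limit in color. Neuron genes reach a CV of at most 0.386 and glia genes 0.417, erythroid genes lie between 0.773 and 0.925, and lymphocyte genes above 2.

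The ganglia labelled Runx1t1 het and wild-type were compared to ask whether the 7 can be described as 1 tissue. The targeted gene did not separate them. Runx1t1 had 2.78, 3.30, 4.41 and 4.19 TPM in the wild-type and 4.38, 4.36 and 6.28 in the het ganglia, so the groups overlapped and het replicate 4 was the highest. The gene lies at chr4:13743436-13893649 on the plus strand. Its log2 fold change was 0.41 with SE 0.52 (edgeR quasi-likelihood test, adjusted p = 0.993). The table gives 1 value per gene, so RNA of a disrupted allele would not be told apart from that of the intact allele, and the libraries are named by their labels. None of 16665 genes tested was called by edgeR at an adjusted p under 0.05 (0%), and the lowest adjusted p was 0.993. At an unadjusted p under 0.05 there were 687 genes (4.12%), of which 60 were higher in the het ganglia, and DESeq2 called 5 genes at an adjusted p under 0.05. The unadjusted count moved with single libraries. Whichever library was left out, more of these genes were lower than higher in the het ganglia. Without wild-type replicate 2 the count was 136 genes, of which 61 were higher. It was 261 (51 higher) without het replicate 3, 445 (41 higher) without het replicate 4 and 485 (65 higher) without het replicate 1. It was 803 (87 higher) without wild-type replicate 3, 1049 (84 higher) without wild-type replicate 4 and 1550 (324 higher) without wild-type replicate 1. With the 7 ganglia alone in the fit it was 244, of which 62 were higher. It was 237 with a term for the libraries under 20000000 reads and 283 within the 4 others (both chosen after seeing the data), with no gene called.

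Of the 18 neuron genes 0 were called and 0 had an unadjusted p under 0.05, against 0% and 4.12% of all genes tested, so the count says nothing particular of the list. All 18 fold changes were toward higher levels in the het ganglia, where over all genes 7558 were higher and 9075 lower. Wild-type replicate 2 held the lowest TPM of each of the 18. Without that library Npy and Slc18a2 were lower in the het ganglia, with log2 fold changes of −0.09 and −0.02. Th differed by a log2 fold change of 0.20 with SE 0.42, Dbh by 0.33 with SE 0.51, Npy by 0.12 with SE 0.50 and Prph by 0.36 with SE 0.56 (edgeR, adjusted p of 0.993 to 0.998). Without wild-type replicate 2 these 4 fold changes were 0.02, 0.11, −0.09 and 0.17. The median over the 18 genes was 0.28, and 0.08 without wild-type replicate 2, against a median of −0.03 over all genes tested. The acetylcholine genes had the largest median of the transmitter lists, 1.25 over 5 genes (0.88 without wild-type replicate 2), and none was called either. The T and B lymphocyte lists went the other way, with medians of −6.79 and −5.85. All of the 5 and 5 genes tested had an unadjusted p under 0.05, and none was called. Each gene of both lists was highest in wild-type replicate 2. Without that library the B lymphocyte median was −0.70, and the unadjusted p of its genes was 0.23 to 0.93 (edgeR). No T lymphocyte median is given without it, since Cd3d and Cd8a were then not tested. The macrophage and cycling cell medians were −1.08 and −1.7, and −0.04 and −0.56 without wild-type replicate 2. Slc18a3 had a log2 fold change of 1.61 with SE 1.25 and Vip one of 0.38 with SE 1.14 (edgeR, adjusted p = 0.993 and 0.995). Without wild-type replicate 2 they were 1.2 and −0.002. For these 2 genes a log2 difference of 1 is smaller than its standard error and was not detectable with 4 and 3 ganglia.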

How the data were processed

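The authors sequenced total RNA of celiac ganglia (SMARTer Stranded Total RNA-seq v2, NovaSeq 6000), checked reads with FASTQC v0.11.5, aligned them to mm10 with STAR v2.5 in 2 passes, and used SAMtools v1.3.1 and RSEM v1.2.31 to deposit TPM and expected counts for 24411 genes. The labels also give polyA RNA as the molecule. TPM were used as deposited by the authors, with 0 columns left unmapped. Expected counts, as deposited by the authors, were rounded and tested in edgeR 4.0.16 (R 4.3.3; TMM, filterByExpr, quasi-likelihood test, Benjamini-Hochberg adjustment, all 16 libraries in the fit), with DESeq2 1.42.0 as an alternative. Calls were adjusted p under 0.05. An exact permutation test planned for the order of gene pairs is not reported, since the pairs were chosen with their levels known. Means, SDs and CVs came from Python 3.11.15.

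Named were the 20 genes with the highest mean TPM, up to 5 leading members of each list and family and those at 0, both genes of each pair, and the 10 highest and 10 lowest CVs among genes of at least 10 TPM. Other list members were named for their role after their values were seen. The members and lists were chosen with earlier results of these data known. Alternatives were other normalizations, filters, pseudocounts and units, and leaving out each library; those added after seeing the data were a depth term, the 4 deeper ganglia and levels, gene counts and spread without wild-type replicate 2. Nothing in the sources used here says that libraries of a group came from separate animals. In the main fit the p-values therefore measure the spread between libraries within groups, estimated over all 16 libraries, tumors included. Some genes of the lists, families and pairs are counted in the totals and not reported here by name. Samples of MYCN homozygotes are not described here.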

Additional observations from a re-analysis of the deposited data

Results flagged for a closer look

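Each list sum, family sum, leading share, pair difference and leading gene was examined for 1 ganglion far from the others, in the 7 ganglia and in the 4 wild-type ganglia alone, as 288 tests on 144 values. Of these 36 stood out, 21 over the 7 and 15 over the 4, where chance gives about 1 in 20. That rate is only a rough guide. The 4 are part of the 7, and the lists and pairs were chosen with earlier results known. Wild-type replicate 2 was the ganglion in 26 of the 36. No explanation was tested.

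Among the cell type lists, wild-type replicate 2 stood above the rest for T lymphocytes at 580.2 TPM, B lymphocytes at 664.5 TPM, macrophages at 510.4 TPM and cycling cells at 204.7 TPM, each over the 7 and over the 4, and for the thymocyte list over the 7 at 3.54 TPM. Wild-type replicate 3 stood above the other wild-type ganglia for adrenal cortex at 98.4 TPM, skeletal muscle at 120.5 TPM and mesothelium at 26.5 TPM, and above the other 6 for the neurotrophin and GDNF family ligands at 14.2 TPM. Wild-type replicate 1 stood above the other 6 for the endocrine pancreas list at 0.880 TPM, a sum close to 0 in every ganglion.

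Among receptors and channels, wild-type replicate 2 was below the others in the summed TPM of gap junction proteins at 110.7, of GABA-A subunits at 24.8 and metabotropic glutamate receptors at 20.04 (over the 7 and over the 4), of sodium channel alpha subunits at 127.8, of Kv1 to Kv4 subunits at 157.4 and of two-pore-domain potassium channels at 64.8 (over the 7 and over the 4). It was above the others in the sum of P2Y and adenosine receptors at 65.7 TPM and in the share of P2rx4 among P2X receptors at 49.8%, and below them in the share of Scn3b among sodium channel beta subunits at 33.6%. Wild-type replicate 4 stood above the other wild-type ganglia in the P2X sum at 62.7 TPM.

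In the gene pairs, on the log2(TPM + 1) scale, the difference of Chrnb4 and Chrnb2 was 1.60 in wild-type replicate 2 and at least 1.84 elsewhere. That of Scn9a and Scn10a was 5.19 in wild-type replicate 1 (over the 7 and over the 4). Wild-type replicate 4 stood apart from the other wild-type ganglia in the difference of P2rx2 and P2rx3 at 3.43. Among single genes and the ribosomal proteins, wild-type replicate 2 had Actb at 6232 TPM (over the 7 and over the 4), Sncg at 1894 TPM as the lowest of 7, and cytoplasmic ribosomal protein genes at 136469 TPM in sum. Ubb was 5378 TPM in wild-type replicate 1, above the other wild-type ganglia.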

How the results depend on the processing

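No gene differed between het and wild-type ganglia in edgeR under any alternative, namely upper-quartile scaling, no filter on low counts, at least 10 counts in every ganglion, the 7 ganglia alone, and leaving out each library (0 to 0 genes). DESeq2 called 5 genes, Amd1, Art2a-ps, Treml4, Stab2 and Gm2083, and the cause was not tested. In each of them 1 library held the signal. The unadjusted counts were 684 with upper-quartile scaling, 819 in DESeq2, 837 without the filter, 402 with at least 10 counts and 244 in the 7 ganglia alone, of which 72, 88, 90, 34 and 62 were higher in the het ganglia. Deviations from the group mean in ganglia of the same replicate number had r of −0.0676, −0.225 and −0.24 for numbers 1, 3 and 4 (across genes). Ganglia of unlike numbers had r of −0.352 to 0.408. The former lie within the range of the latter, so they do not decide whether the numbers pair ganglia. A replicate block gave 0 called genes and 82 at an unadjusted p under 0.05. All 30 gene pairs kept the direction of their mean difference with a pseudocount of 0.1 and after rescaling without Rn45s (mitochondrial genome transcripts were not analysed here). Neither change can alter which gene of a pair is higher within a library, so nothing is concluded from this. The number of genes with a mean of at least 1 TPM was 14253 to 14660 when 1 library was left out, lowest without wild-type replicate 2, and 15540 and 13603 at limits of 0.5 and 2 TPM. The sets of 10 most and least variable genes changed with the library set and the measure. Without wild-type replicate 2, 2 and 2 members remained. With TMM-normalized CPM 3 and 2 remained, and with the SD of log2(TPM + 1) 1 and 9. Leaving out any other library kept 8 to 9 of the most variable and 4 to 7 of the least. Without wild-type replicate 2 the mean of the T lymphocyte list was 2.98 TPM against 85.4 over the 7, and that of the B lymphocyte list 3.66 against 98.1. The depth of 3 libraries, under 20000000 reads, limits what can be said of genes near 0.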

Other observations

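Mural cells of vessels and mesothelium, not described above, also differed between ganglia. The mural and smooth muscle list of 8 genes, all at a mean of at least 1 TPM, summed to 216 ± 134 TPM, with the smooth muscle actin gene Acta2 at 5.26, 20.02 and 85.2 TPM and Myh11 at 5.72, 16.7 and 139, both highest in wild-type replicate 3. The mesothelium list was 26.5 TPM in wild-type replicate 3, 17.2 in het replicate 1 and at most 4.73 in the others.

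Small nucleolar and spliceosomal RNA genes were listed at 0 in all 7 ganglia in 100 of 124 cases, and the rest summed to 3809.9 to 28501 TPM. The 10 leading genes held 7.03% to 11.3% of the TPM.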
